A study of Homo sapiens with 3 samples.

Results

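BAAT, BDH1, MOGAT3 and CYP26A1, 4 enzymes of liver metabolism, were followed in PLC, which the labels give as a line of human liver cancer cells. They were chosen by symbol, with their ratios between these libraries already known, so those ratios are descriptions and are given without a test. Each value is the sum of the gene's RefSeq mRNA rows, 10 rows in all, and the 4 are among 11642 genes whose RefSeq transcripts all had rows of their own. RNA was sequenced from cells in which HKDC1 was knocked down (shHKDC1), cells in which RBBP5 was knocked down (shRBBP5) and control cells (NTC), which the study did to learn if either protein regulates gene expression. HKDC1 is a hexokinase-related protein, and RBBP5 is a core subunit of the complexes that methylate lysine K4 of histone H3. All 3 groups are the same line grown in the same medium, and each is 1 library. Not given in the sources used here are the hairpin sequences, the number of clones and the time of harvest.

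Hepatocytes make bile acids from cholesterol, and BAAT joins them to glycine or taurine in the last step before they are secreted into bile. In fasting, liver mitochondria turn acetyl-CoA into ketone bodies, and BDH1 interconverts acetoacetate and beta-hydroxybutyrate at the end of the route. MOGAT3 adds an acyl chain to monoacylglycerol on one of the routes to diacylglycerol and triacylglycerol, and is known from intestine and liver. CYP26A1 is the cytochrome that oxidises and so clears retinoic acid, and its own gene is a well-known target of retinoic acid receptors.

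The libraries held 115556160 units in shHKDC1, 154533913 in shRBBP5 and 161750310 in NTC, where a unit is the estimated count of the deposited table. Named genes took 0.374% of the units in shHKDC1, 0.439% in shRBBP5 and 0.531% in NTC, the rest lying mostly in 16301 anonymous assembled loci that were not given names. Whether an anonymous locus holds further reads of the 4 genes, and what part these unequal shares have in the ratios, was not tested. Neither targeted gene, HKDC1 or RBBP5, has a named row, and the knockdown itself was not analysed here. Nor were the hepatocyte markers albumin and AFP. Of 20 such markers 1 had complete rows, the fibrinogen chain FGB, which stood at 0.600 CPM in shHKDC1, 2.30 in shRBBP5 and 2.41 in NTC. With no replicates, no difference has a replicate check. Bracketed 95% intervals hold counting error and nothing else, on the assumption that 1 sequenced fragment is worth 4 units.

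The start regions of the 4 genes are shown first because BDH1 and CYP26A1 each have transcript rows that begin at different ones. RefSeq's promoter table (GRCh38.p14) lists 7 starts for the 4 genes, 2 each for BAAT, BDH1 and CYP26A1 and 1 for MOGAT3. For BAAT the start nearer to the gene body is printed, and the BAAT row NM_001701 begins farther downstream, outside these windows. The sequences below run 5′ to 3′ on the gene's strand and end just before the first annotated exon base. Capitals mark TATAAA or CACGTG.
BAAT, chr9:101383565-101383814, minus strand: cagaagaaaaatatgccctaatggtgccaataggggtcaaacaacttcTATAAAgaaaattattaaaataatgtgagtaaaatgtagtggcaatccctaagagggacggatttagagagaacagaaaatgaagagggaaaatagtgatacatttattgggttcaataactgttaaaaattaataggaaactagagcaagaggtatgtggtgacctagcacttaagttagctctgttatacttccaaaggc
BDH1, distal start, chr3:197573344-197573593, minus strand: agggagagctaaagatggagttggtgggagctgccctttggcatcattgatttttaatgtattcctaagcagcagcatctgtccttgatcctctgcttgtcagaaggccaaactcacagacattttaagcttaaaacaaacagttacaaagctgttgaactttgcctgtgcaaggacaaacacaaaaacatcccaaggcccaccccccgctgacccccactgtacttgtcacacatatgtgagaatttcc
BDH1, proximal start, chr3:197556049-197556218, minus strand: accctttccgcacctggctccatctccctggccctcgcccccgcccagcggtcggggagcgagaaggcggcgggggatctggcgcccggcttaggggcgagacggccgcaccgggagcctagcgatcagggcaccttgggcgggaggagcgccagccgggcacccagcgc
MOGAT3, chr7:101201039-101201286, minus strand: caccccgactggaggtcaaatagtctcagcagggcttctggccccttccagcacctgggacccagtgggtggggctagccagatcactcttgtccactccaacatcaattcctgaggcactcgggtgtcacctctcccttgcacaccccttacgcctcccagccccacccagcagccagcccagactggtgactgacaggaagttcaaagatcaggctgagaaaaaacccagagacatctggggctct
CYP26A1, upstream start, chr10:93073225-93073474, plus strand: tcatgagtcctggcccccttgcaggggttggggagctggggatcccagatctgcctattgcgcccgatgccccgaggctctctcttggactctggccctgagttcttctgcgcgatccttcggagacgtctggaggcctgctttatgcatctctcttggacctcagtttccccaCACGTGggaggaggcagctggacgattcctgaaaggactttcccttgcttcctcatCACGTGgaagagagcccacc

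CpG dinucleotides were few before the starts of BAAT, with 1 in 250 bases at each start, of MOGAT3, with 3, and of the distal BDH1 start, with 1. The proximal BDH1 start had 34 in 250 bases, 80 of them exon bases that are not printed above. The upstream CYP26A1 start had 10, and the downstream CYP26A1 start had 22, with 195 of its 250 bases in exons. The median over 35116 windows of that length was 11. The 7 windows were searched for 1 exact spelling of the response element of retinoic acid receptors, a direct repeat of 6 bases spaced by 5. On the opposite strand the downstream CYP26A1 start held AGTTCA, 5 bases of any kind and AGTTCA again, from 90 to 74 bases before it. The match lies inside an exon of the transcript of the upstream start. The site is shown with its flanks, the half-sites in capitals.
CYP26A1, chr10:93073797-93073825, plus strand: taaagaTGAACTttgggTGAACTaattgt
That exact spelling was found on either strand in 3 of the 35116 windows (0.00854%). Other spellings of the element were not searched, so this is not the share of windows with the element, and nothing is read from it. The downstream CYP26A1 start also had TATAAA from 31 to 26 bases before it, where 10.7% of windows hold TATAAA. BAAT had TATAAA from 202 to 197 bases before its start, and the upstream CYP26A1 start had CACGTG at 76 and at 20 bases, where 6.34% of windows hold CACGTG. The 3 other motifs searched on both strands were not in the 7 windows. These were AGGTCA repeated after 1 base (0.0171% of windows), AGGTCA, 1 base and TGACCT (0 of 35116 windows), and CAAAGTCCA, an HNF4 half-element (0.325%). No matches overlapped, and a match is a description of these letters only.

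BAAT had 0.832 CPM in shHKDC1 (86 units, about 22 fragments), 4.02 CPM in shRBBP5 (642 units) and 3.74 CPM in NTC (655 units). CPM is the count scaled to library size, here with TMM factors. The shHKDC1 library was low and the other two did not differ beyond counting error. The log2 ratio to NTC was −2.16 [−2.85 to −1.49] in shHKDC1 and 0.11 [−0.22 to 0.42] in shRBBP5. Set directly against shRBBP5, shHKDC1 was 4.82-fold lower (−2.27 [−2.95 to −1.59]). In bulk RNA, fewer cells that express a gene and less of its RNA per cell cannot be told apart.

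BDH1 had 0.271 CPM in shHKDC1 (28 units, about 7 fragments), 1.15 CPM in shRBBP5 (184 units) and 2.94 CPM in NTC (515 units). The 3 libraries were set apart from each other, in the order shHKDC1, shRBBP5, NTC. The ratio to NTC was −3.42 [−4.78 to −2.36] in shHKDC1, a 10.7-fold lower level, and −1.35 [−1.87 to −0.86] in shRBBP5. The direct ratio of shHKDC1 to shRBBP5 was −2.08 [−3.48 to −0.93].

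MOGAT3 had 1.40 CPM in shHKDC1 (145 units), 1.40 CPM in shRBBP5 (224 units) and 5.75 CPM in NTC (1008 units). Both knockdown libraries stood 4.09-fold below NTC, with log2 ratios of −2.03 [−2.59 to −1.54] in shHKDC1 and −2.03 [−2.48 to −1.61] in shRBBP5. The direct ratio between them had an interval of −0.66 to 0.62.

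CYP26A1 had 1.45 CPM in shHKDC1 (150 units), 1.34 CPM in shRBBP5 (213 units) and 3.62 CPM in NTC (634 units). The ratio to NTC was −1.32 [−1.84 to −0.78] in shHKDC1 and −1.44 [−1.92 to −0.98] in shRBBP5. The knockdowns did not differ beyond counting error (0.12 [−0.49 to 0.78]). GENCODE release 29 places the noncoding gene AL358613.3 over CYP26A1 on the same strand, and 2 processed pseudogenes over BAAT. Reads shared with them cannot be told apart here.

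**Figure D1:**
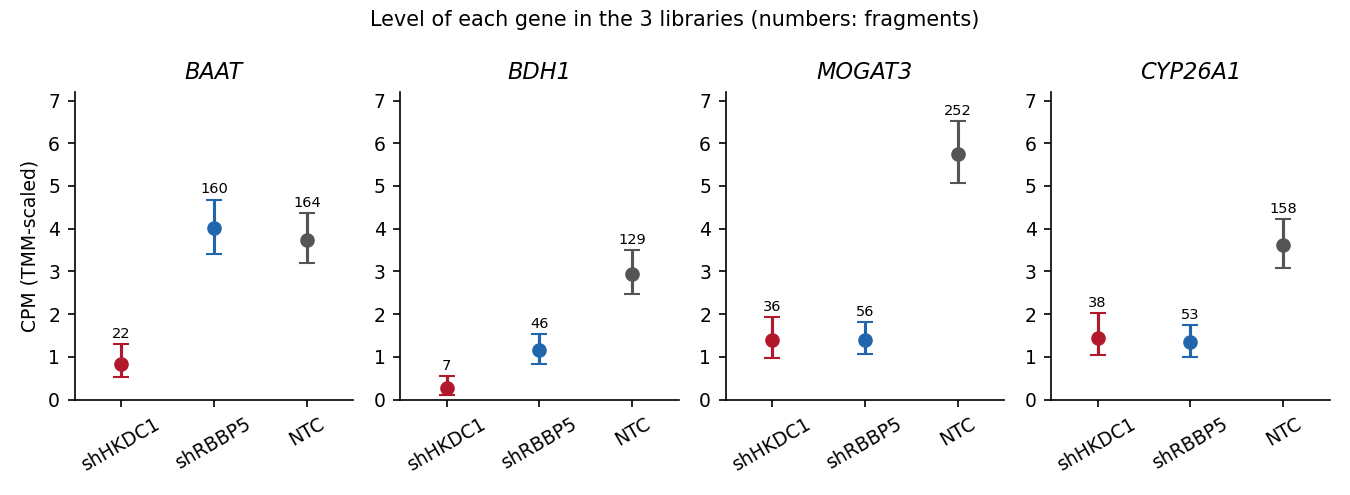
Level of each gene in CPM (y axis) in the shHKDC1, shRBBP5 and NTC libraries, with exact 95% Poisson intervals and the number of fragments above each point. BAAT is low in shHKDC1 alone, BDH1 steps through the 3 libraries, and MOGAT3 and CYP26A1 are at similar levels in both knockdowns and higher in NTC.

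A gene was called higher or lower when its ratio was at least 2-fold and its interval excluded 0. By that rule 4 of the 4 genes were lower in shHKDC1 than in NTC, where 23.2% of the 1015 named genes with a mean of at least 1 CPM were lower and 8.37% higher. In shRBBP5 3 of the 4 were lower than in NTC, where 8.67% of named genes were lower and 2.27% higher. In shHKDC1 against shRBBP5 BAAT and BDH1 were lower, where 17.4% were lower and 11.4% higher. The genes were chosen on these same ratios, so nothing is read from these counts. All 4 passed the filter, at means of 1.45 to 2.86 CPM. BDH1 passed only through its NTC level, so its place among the 1015, and its rank there, rests on that height. The first 2 comparisons share the NTC library.

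From the lowest shHKDC1 to NTC ratio of the 1015, BDH1 was at rank 7, BAAT at 37, MOGAT3 at 43 and CYP26A1 at 131. In shRBBP5 MOGAT3 was at rank 8, CYP26A1 at 28, BDH1 at 36 and BAAT at 772. The median log2 ratio to NTC of 12355 anonymous loci with a mean of at least 1 CPM was −0.01 in shHKDC1 and 0.02 in shRBBP5. For the 1015 named genes the median was lower, at −0.39 in shHKDC1 and −0.20 in shRBBP5, and the cause was not tested. With total-count scaling the named-gene median was −0.67 in shHKDC1, and 59 genes were called higher and 348 lower in place of 85 and 235. Against shRBBP5 the same scaling gave 86 higher and 249 lower in shHKDC1, in place of 116 and 177.

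**Figure D2:**
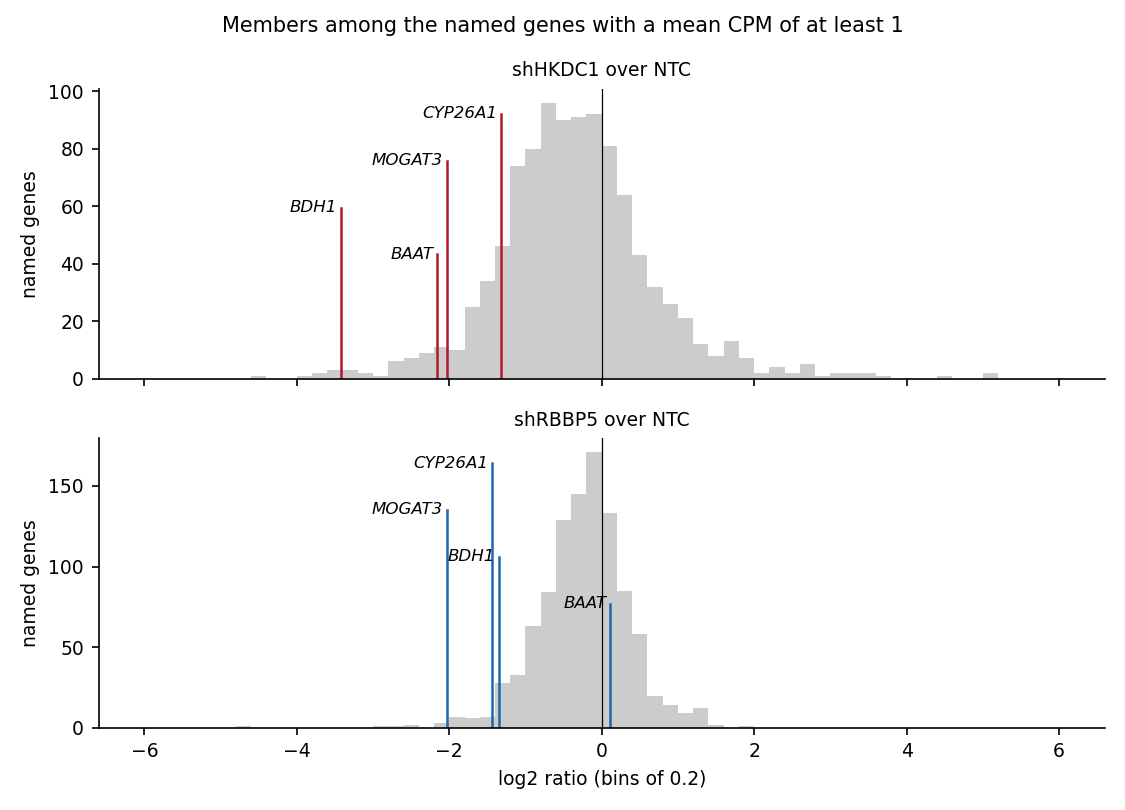
Number of named genes (y axis) by log2 ratio to NTC (x axis, equal bins) for shHKDC1 (top) and shRBBP5 (bottom), with vertical lines at the 4 genes whose heights carry no value. BDH1 lies in the far left tail in shHKDC1, MOGAT3 in that of shRBBP5, and BAAT at 0.11 within the bulk in shRBBP5. BDH1 passed the CPM filter only through NTC.

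The sums of BDH1 were carried by different transcript rows. NM_203315, which starts at the distal CpG-poor start, had 0 units in shHKDC1, 184 in shRBBP5 and 508 in NTC. For that row alone the counting interval of the log2 ratio of shHKDC1 to NTC reached up to −4.32, and the 0 also rests on how reads were divided between the rows. The 28 units of shHKDC1 all lay on NM_203314, which starts at the CpG-rich proximal start and had 0 units in shRBBP5 and 2 in NTC. NM_004051, from the same proximal region, had 0, 0 and 5 units in shHKDC1, shRBBP5 and NTC.

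CYP26A1 was split between NM_000783, the transcript of the downstream start with the direct repeat, and NM_057157 of the upstream start. NM_000783 had 137 units in shHKDC1, 61 in shRBBP5 and 451 in NTC, and NM_057157 had 13, 152 and 183 units in the same order. The downstream transcript thus took 91.3% of the gene's units in shHKDC1, 28.6% in shRBBP5 and 71.1% in NTC. The knockdowns, whose sums did not differ beyond counting error, thus had opposite estimated splits, the smaller parts resting on 13 units in shHKDC1 and 61 in shRBBP5. Error in dividing reads between the rows is not in the interval that follows. On NM_000783 alone the ratio was −0.96 in shHKDC1 over NTC, short of the 2-fold rule, −2.74 in shRBBP5 over NTC, and 1.78 [0.89 to 2.79] in shHKDC1 over shRBBP5.

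MOGAT3 was split between NM_178176 and NM_001287147. NM_178176 had 49 units in shHKDC1, 145 in shRBBP5 and 711 in NTC, and NM_001287147 had 96, 79 and 297. In BAAT, NM_001127610 had 41 units in shHKDC1, 642 in shRBBP5 and 609 in NTC. NM_001701 had 45 units in shHKDC1, 0 in shRBBP5 and 46 in NTC, and NM_001374715 had 0 throughout. Scaled to library size, NM_001701 was at 0.436 CPM in shHKDC1 and 0.263 CPM in NTC. On these few units it thus lay on the other side of NTC from the BAAT sum. Division of reads among overlapping transcripts is an estimate whose error is unknown here, so the sums are the more reliable values.

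**Figure D3:**
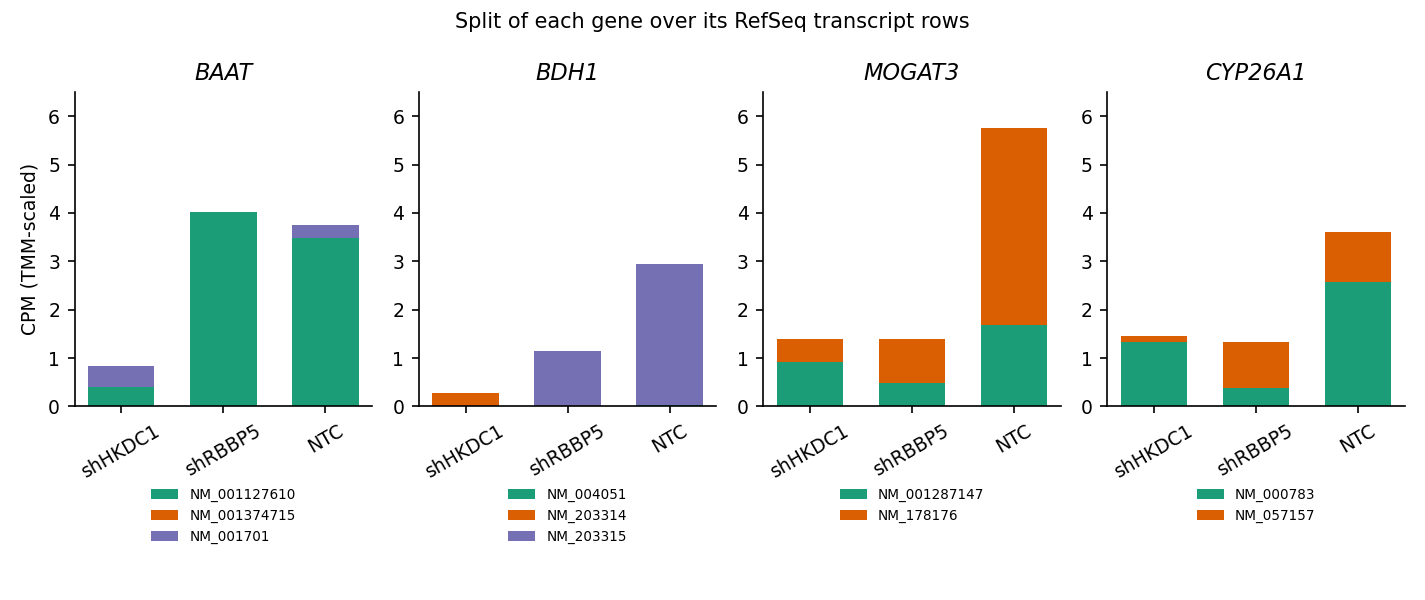
CPM (y axis) of each gene in shHKDC1, shRBBP5 and NTC, stacked by RefSeq transcript row (colours). BDH1 is on NM_203314 alone in shHKDC1 and almost all on NM_203315 in the other two, and the CYP26A1 split differs between the knockdowns.

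The 4 lists of bile acid, ketone and fatty acid oxidation, acylglycerol and lipid droplet, and retinoid genes hold 181 genes, members included. Of these 71 had complete rows, and 5 besides the 4 members reached a mean of 1 CPM. In shHKDC1, 1 of these 5 was higher than in NTC, 1 was lower and 3 were neither, with a median log2 ratio of −0.34, close to that of all named genes. The 1 higher gene, AGPAT4, passed the filter only through its shHKDC1 level. In shRBBP5 0 of the 5 were called in either direction, with a median of 0.47. Without the members, the bile acid list summed to 4.76 CPM in shHKDC1, 5.06 in shRBBP5 and 5.66 in NTC, and the ketone list to 2.74, 1.94 and 3.33 in the same order. The acylglycerol list summed to 10.3, 4.77 and 4.41 CPM, with AGPAT4 carrying the shHKDC1 value, and the retinoid list to 2.92, 6.91 and 4.22 CPM.

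Of the 3 retinoid genes, BCO2, which cleaves carotenoids in mitochondria, had 0.387 CPM in shHKDC1, 3.36 CPM in shRBBP5 and 1.84 CPM in NTC. It was lower in shHKDC1 (−2.24 [−3.37 to −1.30]), and in shRBBP5 its ratio was 0.86, with a lower bound of 0.45, short of the 2-fold rule. CRABP2, which carries retinoic acid to its nuclear receptors, had 1.16 CPM in shHKDC1, 1.15 CPM in shRBBP5 and 0.742 CPM in NTC, and neither interval excluded 0. CYP26A1 and BCO2 thus lay on the same side of NTC in shHKDC1 and on opposite sides in shRBBP5.

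On the acylglycerol list, AGPAT4, which acylates lysophosphatidic acid, had 5.12 CPM in shHKDC1, 0.451 CPM in shRBBP5 and 0.485 CPM in NTC. It was 10.5-fold higher in shHKDC1 (3.39 [2.74 to 4.15]) and was not called in shRBBP5 (−0.10 [−1.08 to 0.89]). Its mean passed the CPM filter only through the shHKDC1 library, so its place among the measured genes rests on that height. TM6SF2, a hepatic protein of lipoprotein secretion, had ratios of −0.34 [−0.99 to 0.24] in shHKDC1 and 0.47 [0.01 to 0.93] in shRBBP5. On the bile acid list UGT2B4, which glucuronidates bile acids and shares sequence with other UGT2B genes, was not called in shHKDC1 (−0.47 [−1.04 to 0.06]) or in shRBBP5 (−0.03 [−0.47 to 0.40]).

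**Figure D4:**
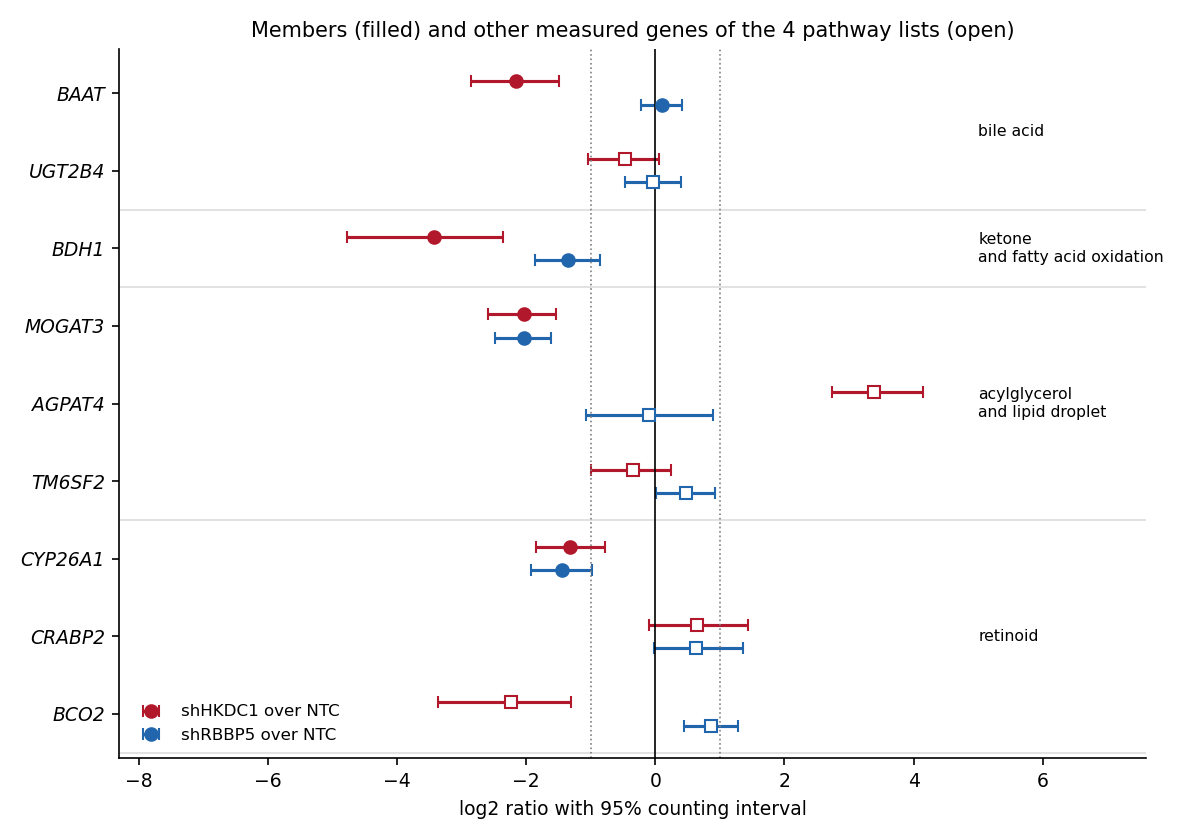
Log2 ratios to NTC (x axis) with 95% counting intervals for the 4 genes (filled circles) and the 5 other measured genes of their lists (open squares), shHKDC1 above shRBBP5 in each row. Dotted lines mark 2-fold, and BDH1 and AGPAT4 lie farthest from 0 in shHKDC1, at −3.42 and 3.39. AGPAT4 passed the CPM filter only through shHKDC1.

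MOGAT3 is also an intestinal gene, so a list of intestinal markers was looked at. Of 15 such markers 9 had complete rows, 3 of them at 0 in all libraries, and they summed to 3.86 CPM in shHKDC1, 1.08 in shRBBP5 and 2.49 in NTC. CDX2, the intestinal transcription factor, had 2.55 CPM in shHKDC1, 0.514 CPM in shRBBP5 and 1.44 CPM in NTC. CDX2 was lower in shRBBP5 and not called in shHKDC1 (0.82 [0.31 to 1.35]). MUC2, an intestinal mucin, had 0.900 CPM in shHKDC1, 0.125 CPM in shRBBP5 and 0.399 CPM in NTC, called higher in shHKDC1 and lower in shRBBP5. CDX2 and MUC2 carried most of the shHKDC1 sum, and LGALS4, KRT20, APOA4 and ALPI, none of them called, had lower values in shHKDC1 than in NTC. LGALS4 and KRT20 stood at 0.297 CPM or less in every library, and APOA4 and ALPI at 3 fragments or fewer. No cell type is read from this list. The part of these markers in the MOGAT3 values was not tested. Fibroblast and stellate markers (7 of 10 with rows) summed to 1.58 CPM in shHKDC1, 1.86 in shRBBP5 and 0.953 in NTC, and endothelial and blood cell markers (9 of 13) to 1.56, 0.633 and 0.753 in the same order. The fibroblast sums were carried by PDGFRB, with 1.48 CPM in shHKDC1, 1.56 CPM in shRBBP5 and 0.605 CPM in NTC, while COL3A1, PDGFRA and DCN had lower values in shHKDC1 than in NTC without being called. VWF, with 0.707 CPM in shHKDC1, 0.0188 CPM in shRBBP5 and 0.0171 CPM in NTC, made most of the endothelial and blood cell difference.

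The named protein-coding genes nearest to each member were taken by the Euclidean distance of the pair of log2 ratios to NTC, over 3 libraries. Nearest to BAAT were FAM161A, a ciliary protein (distance 0.17), FGB (0.24) and SCNN1D, a sodium channel subunit (0.27). FGB had ratios of −2.00 in shHKDC1 and −0.07 in shRBBP5, against −2.16 and 0.11 for BAAT. Nearest to BDH1 were TMEM179 (0.47), AHNAK2 (0.60) and LIFR, the receptor of the cytokine LIF (0.65). Nearest to MOGAT3 were CASP8AP2 (0.74), FBN2, a fibrillin (0.76), and MYT1, a zinc finger transcription factor (0.77). Nearest to CYP26A1 were GUCY1A2, a subunit of guanylate cyclase (0.10), SPEF2, a sperm flagellum protein (0.18), and ZDBF2 (0.22). BDH1 and MOGAT3 had no neighbour as near as those of BAAT and CYP26A1. Few named genes have ratios as low as theirs, so nothing is read from this contrast. The counting interval of BDH1 in shHKDC1, −4.78 to −2.36, is wider than its distances, so the order of its neighbours is not resolved.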

How the data were processed

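Values in the table the authors deposited are estimated counts per RefSeq transcript or assembled locus, not scaled for library size or length. The submitters' processing notes name HISAT2 2.2.1, StringTie 1.3.4, DESeq2 1.28.1 and hg19 but no roles. Not given in the sources used here are the annotation, strand setting and counting tool. The columns shHD and shRB abbreviate, by their letters alone, the labels shHKDC1 and shRBBP5.

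RefSeq rows were named through a GRCh38.p14 RefSeq table (27357 of 27403 matched) and summed per gene. Scaling factors (TMM, edgeR 4.0.16, R 4.3.3) were 0.894 for shHKDC1, 1.032 for shRBBP5 and 1.083 for NTC. Ratios used a pseudocount of 0.5 units, scaled to library size. Intervals are exact Clopper-Pearson intervals of a conditional binomial on fragments of 4 units. Values pile up at 4 in NTC, with 525 rows at 4 units, 332 at 3 and 235 at 5, which is the ground for that assumption. No such pile-up was seen at 8, with 254 rows at 7 units, 227 at 8 and 162 at 9. The ground is therefore partial, and fragment numbers and interval widths depend on it. There is 1 library per group, so no test was made and no p-value is given. PCR copies were not marked by molecular identifiers, so intervals may be too narrow. At this depth 3 fragments are 0.116 CPM in shHKDC1, 0.0752 in shRBBP5 and 0.0685 in NTC.

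The members, the 8 gene lists and the rules were chosen with earlier results of these data known. Named are the members, list genes with a mean of at least 1 CPM, and the 3 nearest genes of each member. One list gene is not reported here and was left out of its list. Other genes were chosen after their values were seen. Alternatives changed the scaling, the pseudocount, the CPM filter, the value of a unit and the summing of rows. Python 3.11.15, NumPy 2.4.6, pandas 2.3.3, SciPy 1.17.1 and matplotlib 3.10.9 were used.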

Additional observations from a re-analysis of the deposited data

Results flagged for a closer look

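STRA6, the cell-surface receptor for the retinol carrier RBP4, lay outside the comparisons because only 8 of its RefSeq transcripts had rows, the rest being in no row of their own. Its named rows held 47 units in shHKDC1 (0.455 CPM), 45 in shRBBP5 (0.282 CPM) and 17 in NTC (0.0970 CPM). The shHKDC1 level was above that of the control, with a log2 ratio of 2.19 [0.62 to 4.44] on about 12 fragments in shHKDC1 and 4 in NTC. The shRBBP5 ratio of 1.51 had an interval of −0.16 to 3.70.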

How the results depend on the processing

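With total counts, DESeq2 size factors, upper quartiles, a pseudocount of 5 units, the 20 most abundant rows left out, or each unit taken as 1 read, all 12 ratios of the 4 genes kept their call, and their values stayed inside the intervals given above. Taking the most abundant RefSeq row alone kept 10 of the 12 calls. In shHKDC1 over NTC it gave −3.12 for BAAT, −9.73 for BDH1 and −3.09 for MOGAT3, and in shRBBP5 over NTC −2.74 for CYP26A1. In shHKDC1 over shRBBP5 it gave −3.33 for BAAT, −8.40 for BDH1, −0.93 for MOGAT3 and 1.78 for CYP26A1, the last a call that the sum does not make. The other changed call was CYP26A1 in shHKDC1 over NTC, at −0.96 no longer 2-fold. The BDH1 values rest on 0 units in shHKDC1 and are no bounds. Counts of named genes and the balance of higher and lower moved with the CPM filter, and the cause was not tested. With no filter, 557 were higher and 473 lower in shHKDC1 over NTC, 134 and 291 in shRBBP5 over NTC, and 660 and 390 in shHKDC1 over shRBBP5. At a mean of at least 5 CPM, which leaves out the 4 genes, these were 2 and 48, 0 and 7, and 3 and 32. Depth limits BDH1 in shHKDC1, at about 7 fragments. No paired analysis was possible because each group has 1 library.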

Other observations

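Of the 62 pathway genes below a mean of 1 CPM, shHKDC1 set against NTC had 7 called higher and 9 called lower, and shRBBP5 against NTC had 2 and 5. Of all 10627 named genes below that mean, 4.44% were called higher and 2.24% lower in shHKDC1, and 1.04% higher and 1.91% lower in shRBBP5. Both sets include genes without a count in any library, which cannot be called. The sets were not matched by level, so nothing is read from the difference in shares. Those named here were chosen after their values were seen, and all rest on few fragments. In the ketone list OXCT1, which starts the use of ketone bodies outside the liver, had 123 units in shHKDC1, 36 in shRBBP5 and 68 in NTC, and was higher in shHKDC1 (1.61 [0.73 to 2.57]). FGF21, a fasting hormone of the liver, had 46 units in shHKDC1, 0 in shRBBP5 and 4 in NTC, about 1 fragment, so that its ratio in shHKDC1 is poorly bounded (4.10 [1.59 to 9.76]). PPARGC1A, a coactivator of oxidative and fasting genes, had 35, 132 and 172 units in the same order and was lower in shHKDC1 (−1.53 [−2.72 to −0.44]). The monocarboxylate transporter SLC16A7 was lower in shHKDC1 (−2.04 [−3.33 to −0.97]) and in shRBBP5 (−1.72 [−2.57 to −0.85]).

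FABP6, the ileal bile acid binding protein, had 112 units in shHKDC1, 63 in shRBBP5 and 21 in NTC. It was higher in shHKDC1 (3.14 [1.86 to 4.98]) and in shRBBP5 (1.69 [0.30 to 3.62]), and so opposite to BAAT in shHKDC1. SULT2A1, which sulfates bile acids and steroids and belongs to a family of similar sequences, had 10, 42 and 155 units in the same order, with ratios of −3.15 [−6.62 to −1.57] and −1.74 [−3.00 to −0.80]. Lower in shHKDC1 like BAAT were also CYP46A1, which hydroxylates cholesterol (−2.08 [−4.50 to −0.38]), and the steroid reductases AKR1D1 (−1.57 [−3.75 to −0.21]) and AKR1C4 (−1.80 [−3.92 to −0.41]). AKR1C4, which has close paralogs, was lower in shRBBP5 as well (−1.87 [−3.55 to −0.67]). Among retinoid genes AOX1, an oxidase that can turn retinal into retinoic acid, had 62 units in shHKDC1, 3 in shRBBP5 and 0 in NTC. The counting interval of its log2 ratio of shHKDC1 to NTC began at 2.71. RDH12, a retinal reductase, had 16 units in shHKDC1, 189 in shRBBP5 and 45 in NTC, and was higher in shRBBP5 (2.19 [1.26 to 3.33]). The endothelial lipase LIPG was higher in shHKDC1 (2.49 [1.03 to 4.32]), and MGLL, which hydrolyses monoacylglycerol, was lower in shRBBP5 (−1.24 [−2.11 to −0.47]) and had a ratio of 0.04 in shHKDC1.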
